A study of Homo sapiens with 3 samples.

Results

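The genes of the cytosolic ribosome's own proteins were followed across 3 RNA-seq libraries of MIAPaCa-2, a line derived from a human pancreatic carcinoma. A gene was a member if its symbol was RPL or RPS with a number and at most the suffix A, L, L1 or X, or was RPLP0, RPLP1, RPLP2 or RPSA. RPS27L and the pseudogenes were left out by that rule. The rule found 80 members of 14949 listed genes, 49 of the large (60S) subunit and 31 of the small (40S) subunit, and used no measured value. All 80 passed the filter on low values, a mean normalized count of at least 1.

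The libraries were sh-CTL, cells with a control hairpin and no drug, sh-METTL3, cells with a hairpin against the m6A RNA methyltransferase METTL3 and no drug, and sh-CTL + PLK1i, control hairpin cells kept for 24 h in 80 nM of NMS-P937, which inhibits the mitotic kinase PLK1. There was 1 library per group, so no difference here has a replicate check or a p-value, and each comparison is of 2 libraries rather than of 2 conditions. Both comparisons used the same sh-CTL library. Whether the hairpin lines were single clones was not given in the sources used here. Intervals cover counting error only, at the 95% level.

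Ribosomal proteins coat the ribosomal RNA of both subunits, and each is present in about a single copy per ribosome, apart from the stalk proteins RPLP1 and RPLP2. Their messages are among the most abundant of growing cells. Most begin at a C followed by a run of pyrimidines, the 5′ terminal oligopyrimidine (TOP) tract, through which the kinase mTOR and the binding protein LARP1 set their translation and stability. Several proteins have a paralog, encoded by a separate gene, that can take their place in the ribosome or in its assembly.

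The start of the transcript differs within some paralog pairs, which the sequences around the annotated starts show. Each line below holds 30 bases of the coding strand from RefSeq (GRCh38.p14), with 15 bases before the start and 15 from it on. Capitals mark the tract, a C and at least 4 further C or T. RPLP1, RPSA, RPL14 and RPL35 are shown because they come among the members with the largest changes, and the others because they form paralog pairs. Of the members with large changes that are not shown, RPS15, RPL17, RPS28, RPL3 and RPS26 had no such tract at the annotated start.
RPLP1, chr15:69452803-69452832, plus strand: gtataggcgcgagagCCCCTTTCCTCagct
RPSA, chr3:39406705-39406734, plus strand: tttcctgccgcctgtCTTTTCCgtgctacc
RPL14, chr3:40457324-40457353, plus strand: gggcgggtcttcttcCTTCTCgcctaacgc
RPL35, chr9:124861943-124861972, minus strand: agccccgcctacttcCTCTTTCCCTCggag
RPL22, chr1:6199581-6199610, minus strand: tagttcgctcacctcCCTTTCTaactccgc
RPL22L1, chr3:170870181-170870210, minus strand: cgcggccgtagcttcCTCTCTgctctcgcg
RPL26, chr17:8383179-8383208, minus strand: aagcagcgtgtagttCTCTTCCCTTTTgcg
RPL26L1, upstream start, chr5:172958714-172958743, plus strand: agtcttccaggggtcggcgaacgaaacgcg
RPL26L1, downstream start, chr5:172958865-172958894, plus strand: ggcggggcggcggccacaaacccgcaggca
RPS27, chr1:153990747-153990776, plus strand: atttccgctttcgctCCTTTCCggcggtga
RPS27L, chr15:63157463-63157492, minus strand: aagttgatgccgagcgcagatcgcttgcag
RPL36A, chrX:101390996-101391025, plus strand: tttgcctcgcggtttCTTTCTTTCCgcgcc
RPL36AL, chr14:49620612-49620641, minus strand: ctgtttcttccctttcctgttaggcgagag
RPL7L1, chr6:42879601-42879630, plus strand: cggaagtgcggcgccgtagctaggagcgga

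RPL22 and RPL22L1 both began with such a tract. RPL26, RPS27 and RPL36A had one, while their counterparts RPL26L1, RPS27L and RPL36AL had none at the annotated start. Of the 65 members with a RefSeq start, 47 (72.3%) had a tract at an annotated start, against 5.14% of 27305 gene symbols. The 18 members without one were RPL10A, RPL15, RPL17, RPL19, RPL26L1, RPL27, RPL3, RPL32, RPL4, RPL6, RPL7L1, RPL9, RPS15, RPS26, RPS28, RPS29, RPS4X and RPS7. An annotated start a few bases off would hide a tract, so a missing match says only that these letters do not begin there.

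Over the 300 bases from 250 before to 50 after the start, and on both strands, CTTCCG stood at 63.1% of the members against 22.6% of all symbols. AAGATGG was found at 13.8% against 7.11%, GGGCGG at 56.9% against 48.3% and CACGTG at 7.69% against 8.77%. CTTCCG holds the core that ETS family factors bind, AAGATGG that of YY1, GGGCGG that of SP1 and CACGTG that of MYC and its partners. The symbols compared, here and for the tract, were not limited to the genes listed in these libraries. These matches are a description of letters and were not set against any binding data.

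Between 37449317 and 47727534 reads fell in listed genes per library. METTL3 itself had 3939 normalized counts in sh-CTL, 1651 with the METTL3 hairpin and 3888 with the inhibitor. Its log2 change was -1.25 (-1.34 to -1.17) in sh-METTL3, so the hairpin's label held at the RNA level. With the inhibitor the change was -0.02 (-0.08 to 0.05), an interval that included 0. The epithelial keratins KRT8, KRT18 and KRT19 were read in every library, as were the mesenchymal genes VIM and ZEB1. EPCAM, CDH1 and CDH2 had no listed value, nor did the acinar, endothelial and T cell markers looked for. Of the leukocyte and fibroblast markers, CD68 had 1505, 3499 and 2875 reads in sh-CTL, sh-METTL3 and sh-CTL + PLK1i, COL1A1 had at most 36 and COL1A2 at least 44100, while PTPRC and DCN had no listed value. Their part in the results was not tested. In RNA from whole cultures, fewer cells of a kind and less RNA per cell cannot be told apart.

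Ribosomal protein genes took up a larger part of the reads in sh-METTL3 than in the other libraries. The 80 members held 4.94% of reads in listed genes in sh-CTL (Wilson interval 4.93 to 4.94), 5.35% (5.34 to 5.36) with the METTL3 hairpin and 4.89% (4.88 to 4.90) with the inhibitor. The large subunit accounted for 3.03%, 3.26% and 2.98% in the same order, and the small subunit for 1.91%, 2.09% and 1.91%. Both subunits were thus highest in sh-METTL3. Within the members, the large subunit's part was 61.4%, 60.98% and 60.98%. The 83 listed pseudogenes of ribosomal proteins, whose sequences can be close enough to share reads with the parent genes, held 1.94%, 1.998% and 2.08% of the reads of members and pseudogenes together. How reads that match several places were handled was not given in the sources used here.

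**Figure D1:**
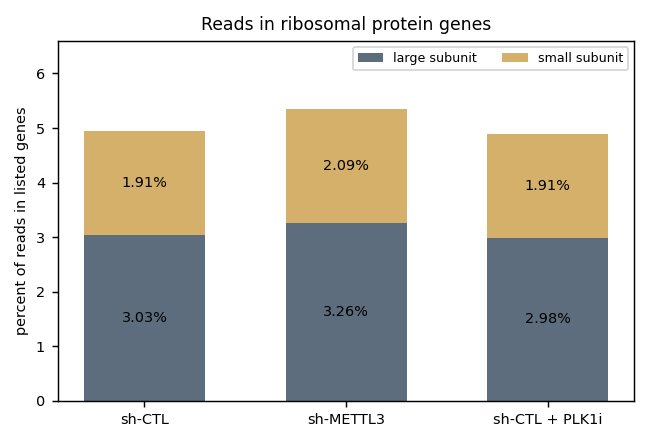
Stacked bars of the percent of reads in listed genes that fell in large and small subunit genes (y axis, from 0) in each of the 3 libraries (x axis, 1 library each, with counting intervals too narrow to draw). The sh-METTL3 bar is the tallest, with 3.26% for the large and 2.09% for the small subunit.

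Most members were slightly higher in sh-METTL3 than in sh-CTL. On the log2 scale of normalized count plus 1, the members' changes from sh-CTL had a median of 0.12 and a mean of 0.13, with an interquartile range of 0.07 to 0.16. The median of all genes was 0.0013. In all, 74 of the 80 members were above 0 and 6 below, beside 50.2% of all genes above 0 and 46.7% of the 7150 abundant genes, those whose mean reached 1000. A log2 change of at least 0.1 was used to call a gene higher. That rule called 48 members higher, beside 35.1% of all genes and 26.5% of the abundant genes just named. It called 3 members lower, beside 34.9% and 32.6%. With the bar at 0.2, 14 members were higher (23.8% of all genes, 13.1% of the abundant ones) and 1 was lower (23.2% and 17.7%).

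None of the members differed 2-fold between sh-METTL3 and sh-CTL, beside 6.37% of all genes and 1.01% of the abundant genes. The counting interval lay above 0 for 73 members and below 0 for 4, beside 27.1% and 28.2% of all genes and 31.3% and 37.1% of the abundant ones. The SD of the changes was 0.12 over the members and 0.29 over the abundant genes. The members thus lay closer together than the abundant genes did, though the abundant genes were not matched to them in level.

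With PLK1 inhibition the members centred on the control level. Their median change in sh-CTL + PLK1i was 0.01, with an SD of 0.06 against 0.17 over the abundant genes. Scaling to total reads or by the upper quartile put this median at -0.0035 and -0.011, so it has no firm sign. A total of 43 members were above 0 and 37 below, beside 50.5% of all genes and 52.7% of the abundant genes above 0. Only 3 were higher by at least 0.1 (31.6% of all genes, 26.4% of the abundant ones), and 5 were lower (31.7% and 23.3%). The higher members thus made up 37.5% of those called, and 14.3% when libraries were scaled to total reads, 16.7% with TMM scaling. None reached 0.2 in either direction, beside 18.4% of all genes higher and 19.6% lower (10.3% and 9.75% of the abundant ones), and none differed 2-fold, beside 2.52% and 0.042%. The counting interval lay above 0 for 27 members and below 0 for 22, beside 23.1% and 22.8% of all genes and 32.4% and 28.6% of the abundant ones.

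**Figure D2:**
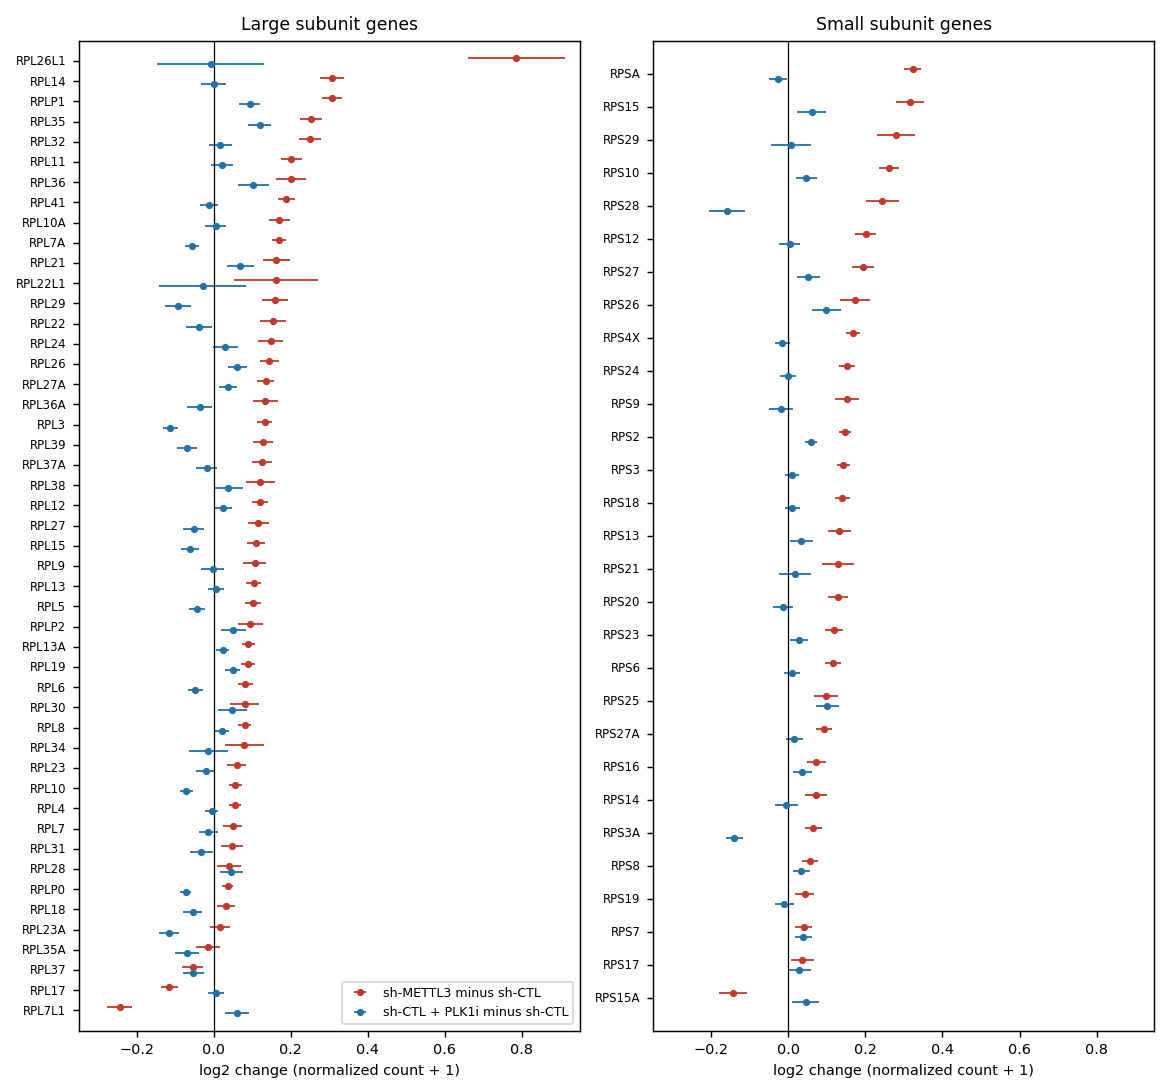
Log2 change of 48 large and 29 small subunit genes (y axis, ordered by the sh-METTL3 change) in sh-METTL3 (red) and sh-CTL + PLK1i (blue), each minus the same sh-CTL library, with 95% counting intervals as bars. The red points lie mostly right of 0, with RPL26L1 farthest at 0.78, and the blue points lie between -0.16 and 0.12.

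The subunits had similar medians in sh-METTL3, and whether they differ could not be tested. The median change in sh-METTL3 was 0.12 for the large subunit genes and 0.13 for the small subunit genes, a difference (large minus small) of -0.01. A change of at least 0.1 was seen in 29 of 49 large and 19 of 31 small subunit genes, beside the 35.1% of all genes given above. With PLK1 inhibition the medians were -0.01 and 0.02, a difference of -0.02. Of the large subunit genes 22 were above 0 with the inhibitor and 27 below, and of the small subunit genes 21 were above and 10 below. Among all genes 50.5% were above 0 with the inhibitor. The counting interval lay above 0 for 15 and below 0 for 18 large subunit genes, and for 12 and 4 small subunit genes, beside the 23.1% and 22.8% of all genes given above. The SD among the genes was 0.14 and 0.10 in sh-METTL3 and 0.05 and 0.06 with the inhibitor, for the large and small subunit in turn.

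The highest library was the same for most members. The normalized count was highest in sh-METTL3 for 72 of 80 members (90%), beside 39.4% of all genes and 36.3% of the abundant genes. The sh-CTL + PLK1i library was highest for 6 members, RPL17, RPL28, RPL7L1, RPS15A and RPS25 among them, beside 34.4% of all genes and 38.4% of the abundant ones. The sh-CTL library was highest for 2, RPL35A and RPL37, beside 26.2% and 25.3%.

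By place in the ribosome, the stalk comes first. It is the flexible arm of the large subunit that recruits the elongation factors. RPLP0, its base, had 78035 normalized counts in sh-CTL, 80046 with the METTL3 hairpin and 74184 with the inhibitor, log2 changes of 0.04 (0.02 to 0.05) and -0.07 (-0.09 to -0.06). RPLP1, an acidic protein of the arm's tip, had 22409, 27706 and 23904 in the same order, changes of 0.31 (0.28 to 0.33) and 0.09 (0.07 to 0.12). Its dimer partner RPLP2 had 15287, 16333 and 15836, changes of 0.10 (0.06 to 0.13) and 0.05 (0.02 to 0.08). The counting intervals of these partners did not overlap in sh-METTL3. RPL12, which joins the stalk to the body, had 34156, 37123 and 34765, a change of 0.12 (0.10 to 0.14) in sh-METTL3 that became -0.037 relative to its chromosomal neighbours.

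RPL5 and RPL11 bind the 5S ribosomal RNA, and outside the ribosome the same particle restrains MDM2, the ubiquitin ligase of p53. RPL5 had 37746 normalized counts in sh-CTL, 40509 with the METTL3 hairpin and 36640 with the inhibitor, a change of 0.10 (0.08 to 0.12) in sh-METTL3 that became -0.081 relative to its neighbours. RPL11 had 20864, 23990 and 21179, a change of 0.20 (0.17 to 0.23). With the inhibitor the pair stood at -0.04 and 0.02.

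Around the mouth of the tunnel through which the new chain leaves, 8 members (RPL17, RPL19, RPL22, RPL23A, RPL26, RPL31, RPL35 and RPL39) had a median of 0.11 in sh-METTL3, from -0.12 in RPL17 to 0.25 in RPL35. With the inhibitor this group had the largest SD of the structural groups, 0.08, from -0.12 in RPL23A to 0.12 in RPL35. The small subunit's head, which holds the transfer RNA sites together with the body, had 14 members with a median of 0.13 in sh-METTL3. All 14 were above 0, beside 50.2% of all genes. The 17 genes of the body and platform had a median of 0.13 as well, with 15 above 0 beside the same 50.2%. With the inhibitor these groups stood at 0.01 and 0.02. In sh-METTL3 the medians of all 5 structural groups thus lay between 0.11 and 0.15.

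RPL26L1 (ENSG00000037241, hg19 chr5:172385732-172396774, plus strand), the paralog of RPL26, had the largest difference of all members and also the lowest mean count, 1103. It had 890 normalized counts in sh-CTL, 1533 with the METTL3 hairpin and 885 with the inhibitor. The sh-METTL3 library stood apart, with a log2 change of 0.78 (0.66 to 0.91), or 1.72-fold, while the inhibitor library stood at -0.01 (-0.15 to 0.13). The next member, RPSA, stood at 0.32.

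The next largest differences in sh-METTL3 were in abundant members. RPSA, a protein of the small subunit's platform that is also known as the laminin receptor precursor, had 30506 normalized counts in sh-CTL, 38154 with the METTL3 hairpin and 29968 with the inhibitor, a change of 0.32 (0.30 to 0.35) in sh-METTL3. RPS15, in the head, had 11503, 14318 and 12000, a change of 0.32 (0.28 to 0.35). In both genes sh-CTL and sh-CTL + PLK1i lay close together and sh-METTL3 above both. RPL14, in the large subunit, had 15441, 19101 and 15445, a change of 0.31 (0.28 to 0.34) beside 0.00 (-0.03 to 0.03) with the inhibitor. Relative to their neighbours RPSA, RPS15 and RPL14 stood at 0.16, 0.13 and 0.15 in sh-METTL3, beside a median of 0.12 over the members on that scale.

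A few members went the other way in sh-METTL3. RPL7L1, the paralog of RPL7, had 16974 normalized counts in sh-CTL, 14332 with the METTL3 hairpin and 17702 with the inhibitor, a change of -0.24 (-0.28 to -0.21), or 0.844-fold. RPS15A, of the small subunit's body, had 13422, 12158 and 13852, a change of -0.14 (-0.18 to -0.11). In these genes sh-METTL3 was the lowest of the 3 libraries. RPL17 (hg19 chr18:47014823-47018878, minus strand), at the tunnel's mouth, had 36075, 33309 and 36226, a change of -0.12 (-0.14 to -0.09), while its listed neighbours had a median of -0.32, so that it stood 0.21 above them. A separate row for transcripts that run from RPL17 into the next gene, C18orf32, had 729, 795 and 982 reads. These are reads before scaling, so they do not compare the libraries as normalized counts do.

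RPL37 had 23914, 23022 and 23058 normalized counts, changes of -0.05 (-0.08 to -0.03) in sh-METTL3 and -0.05 (-0.08 to -0.03) with the inhibitor. It was lower than sh-CTL by the same small amount in both libraries, which share that control. RPL35A stood at -0.01 in sh-METTL3, with an interval (-0.05 to 0.02) that included 0.

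The inhibitor's largest differences were small and lay in both subunits. RPL35, at the tunnel's mouth, had 18326 normalized counts in sh-CTL, 21833 with the METTL3 hairpin and 19903 with the inhibitor, a change of 0.12 (0.09 to 0.15) with the inhibitor. RPL36 had 10162, 11679 and 10912, a change of 0.10 (0.06 to 0.14). RPS25, of the head, known for its part in initiation at internal ribosome entry sites, had 17755, 18995 and 19048, a change of 0.10 (0.07 to 0.13). RPS26, which lies where the message leaves the ribosome, and RPLP1 followed at 0.10 and 0.09. In sh-METTL3, where 74 of the 80 members were above the same sh-CTL library, they stood at 0.25 in RPL35, 0.20 in RPL36, 0.10 in RPS25, 0.17 in RPS26 and 0.31 in RPLP1. Relative to neighbours RPL35 and RPL36 stood at 0.076 and 0.049 in sh-METTL3, below the 0.1 used for a call, and RPS26 at 0.22 with the inhibitor.

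On the low side with the inhibitor, RPS28, a small protein of the head, had 8542 normalized counts in sh-CTL, 10117 with the METTL3 hairpin and 7649 with the inhibitor. It went in opposite directions in the comparisons, with a change of 0.24 (0.20 to 0.29) in sh-METTL3 and of -0.16 (-0.20 to -0.11) with the inhibitor. Relative to its neighbours these were 0.037 and -0.18, so that it was no longer called higher in sh-METTL3. RPS3A had 33448, 34987 and 30361, a change of -0.14 (-0.16 to -0.12) with the inhibitor. RPL23A, where the signal recognition particle docks, had 25091, 25369 and 23153, a change of -0.12 (-0.14 to -0.09). RPL3, which reaches towards the peptidyl transferase centre, had 46562, 51031 and 43052, a change of -0.11 (-0.13 to -0.09) that was -0.048 relative to its neighbours. All of these were lowest in sh-CTL + PLK1i.

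Paralog pairs show whether the balance between related genes moved, since both genes of a pair share the library and its scaling. For RPL26 and RPL26L1 the second gene's part of the pair's reads was 3.25% in sh-CTL (exact Clopper-Pearson interval 3.03 to 3.48), 4.97% with the METTL3 hairpin (4.74 to 5.21) and 3.10% with the inhibitor (2.91 to 3.30). RPL26 itself had 26506, 29300 and 27665 normalized counts, a change of 0.14 (0.12 to 0.17) in sh-METTL3 beside the 0.78 of RPL26L1. For RPL7 and RPL7L1 it was 37.6% (37.2 to 38.1), 32.99% (32.6 to 33.4) and 38.9% (38.4 to 39.3). RPL7 had 28120, 29105 and 27852 normalized counts. The second paralog thus gained in the RPL26 pair and lost in the RPL7 pair in sh-METTL3, beyond counting error in both. These are parts of reads, with no correction for length. Per kb of the longest transcript RPL7L1 made up 16.99%, 14.3% and 17.7% of its pair and RPL26L1 4.34%, 6.599% and 4.14%, so that the order of the libraries was the same.

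For RPL22 and RPL22L1 the second gene's part was 8.67% (8.20 to 9.16), 8.72% (8.32 to 9.13) and 8.72% (8.29 to 9.16), with intervals that overlapped throughout. RPL22 had 14293, 15893 and 13921 normalized counts and RPL22L1 had 1356, 1517 and 1329. Both genes of this pair were higher in sh-METTL3 by nearly the same amount, 0.15 (0.12 to 0.19) and 0.16 (0.05 to 0.27).

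The remaining pairs join a member to a gene that the rule left out. RPL36AL, whose protein is nearly that of RPL36A, had 4768, 5105 and 5160 normalized counts, and 23.9% (23.3 to 24.6), 23.5% (22.95 to 24.0) and 25.9% (25.3 to 26.5) of the pair's reads, so that it gained with the inhibitor. Transcripts that run from RPL36A into HNRNPH2 were listed apart, with 2926, 4167 and 4059 reads, again before scaling. RPS27L, which is known as a p53 target, had 869, 822 and 871 normalized counts, and 4.49% (4.18 to 4.81), 3.74% (3.502 to 3.99) and 4.35% (4.08 to 4.63) of its pair's reads. Its own change in sh-METTL3 was -0.08 (-0.22 to 0.06), while RPS27 stood at 0.19 (0.16 to 0.22). Per kb of the longest transcript the part of RPS27L was 0.270%, 0.223% and 0.261%, and per kb of the median length 2.01%, 1.66% and 1.94%. RPL3L, RPL10L and RPL39L had no listed value, so their pairs could not be described. Reads that fit both genes of a pair could be split between them by the counting, so the parts are less certain than their intervals.

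**Figure D3:**
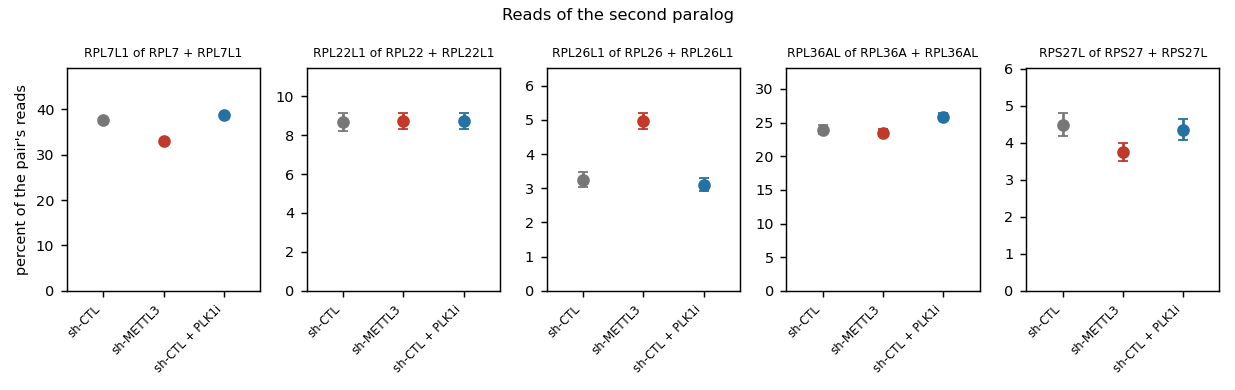
Percent of each pair's reads that fell in the second paralog (y axis, from 0 with its own scale in each panel) in the 3 libraries (x axis), with 95% exact counting intervals as bars. RPL26L1 is highest in sh-METTL3 at 4.97%, RPL7L1 is lowest there at 32.99%, and RPL22L1 stands between 8.67% and 8.72% in every library.

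Per kilobase of the longest annotated transcript, the highest members in sh-CTL were RPS18 with 75413.8 normalized counts per kb, RPS2 with 68127.7, RPL39 with 61683.2, RPLP0 with 58061.6 and RPL12 with 53873.8. In sh-METTL3 they had 83082.2, 75436.0, 67435.1, 59557.8 and 58553.7, and in sh-CTL + PLK1i 75974.8, 70912.2, 58815.3, 55196.3 and 54834.5. Only 3 of the 5 stayed among the highest when the median transcript length was used. The lowest were RPL26L1 with 1199, RPS29 with 899.9 and RPL22L1 with 713.0 in sh-CTL. RPS29 owed its place to a long annotated transcript: it had 10910.2 per kb of the median length, while RPL26L1 and RPL22L1 had 1295 and 2488. RPL26L1 and RPL22L1 ranked 78 and 80 of the 80 members on the longest length and 80 and 78 on the median length.

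The members' changes in sh-METTL3 varied with their place on the chromosomes. Up to 25 listed genes on each side of a member, with a mean of at least 50 and no ribosomal protein gene among them, served as its neighbours. In sh-METTL3 the members' changes correlated with the median changes of their neighbours, with Pearson's r of 0.38 over the 80 members and 0.48 without RPL26L1. With the inhibitor r was -0.16. These are descriptions across genes that share 3 libraries and, in places, neighbours. After the neighbours' median was taken off, the members' median change in sh-METTL3 was 0.12, with 70 above their neighbours and 10 below. With the inhibitor it was -0.02, with 34 above and 46 below. The share of all genes that lay above their own neighbours was not computed.

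Chromosome 19 gives an example. Its 4 members below position 20000000, RPS15, RPL36 and RPS28 among them, had a median of 0.28 in sh-METTL3, from 0.20 to 0.32, while its 8 members above that position had a median of 0.05. The neighbours of the former had medians between 0.15 and 0.21. The division at 20000000 was chosen after the values were seen. On chromosome 3, 8 members had a median of 0.16, from -0.01 in RPL35A to 0.32 in RPSA.

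**Figure D4:**
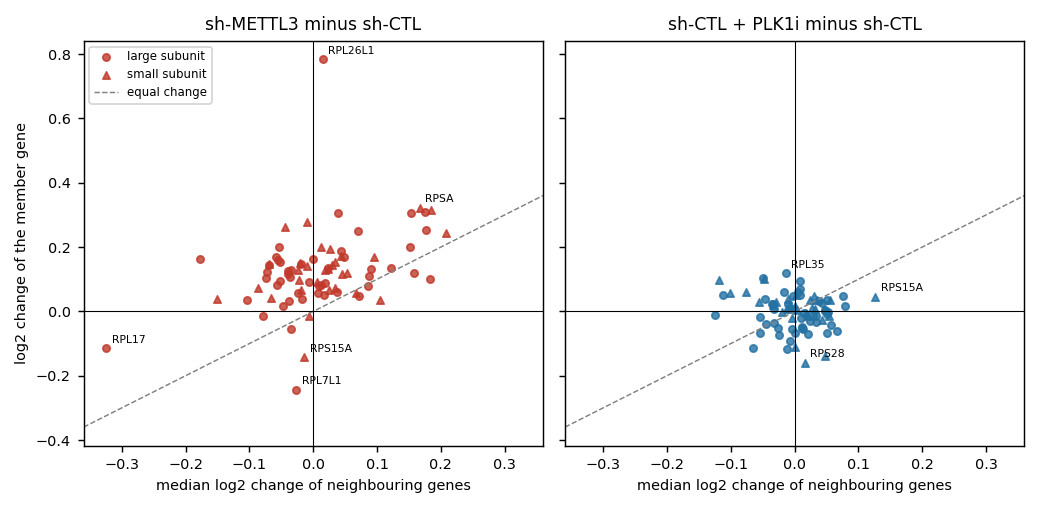
Log2 change of each member (y axis) against the median log2 change of its listed neighbours (x axis) in sh-METTL3 (left, red) and sh-CTL + PLK1i (right, blue), with circles for large and triangles for small subunit genes and a dashed line of equal change. In sh-METTL3 70 of 80 members lie above the line, RPL17 among them, and in sh-CTL + PLK1i 34 do. The share of all genes above their own neighbours was not computed.

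Members with and without a tract at the annotated start had similar medians. A start annotated a few bases off would hide a tract, so the groups need not separate TOP messages from others. In sh-METTL3 the 47 with a tract had a median of 0.13, from -0.01 to 0.32, and the 18 without had 0.12, from -0.24 to 0.78. With the inhibitor the medians were 0.01 and 0.00. In sh-METTL3 the genes farthest from the rest, RPL26L1 and RPL7L1, were both without a tract at the annotated start. Across the members the change in sh-METTL3 correlated with log2 mean count at r of -0.41 (n = 80 genes), which was -0.16 without RPL26L1, with GC content at 0.12 and with log2 median transcript length at -0.09.

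Ribosomal proteins whose genes carry other names were described beside the members. FAU, whose product is a ubiquitin-like protein fused to eS30, had 7447 normalized counts in sh-CTL, 7920 with the METTL3 hairpin and 8030 with the inhibitor, changes of 0.09 (0.04 to 0.14) and 0.11 (0.06 to 0.16). RACK1, a scaffold for kinases on the small subunit's head, had 64303, 68490 and 60490, changes of 0.09 (0.08 to 0.11) and -0.09 (-0.10 to -0.07). The member RPS27A, made as a fusion with ubiquitin, stood at 0.09 and 0.02.

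The other genes known for TOP messages, 22 translation factors and related genes, had medians of 0.09 and -0.02 in the sh-METTL3 and inhibitor comparisons, with 10 higher and 2 lower by at least 0.1 in the former (35.1% and 34.9% of all genes) and 3 and 5 in the latter (31.6% and 31.7%). They were spread more widely than the members, with an SD of 0.20 in sh-METTL3. EEF2, which moves the ribosome along the message, had 75517 normalized counts in sh-CTL, 113872 with the METTL3 hairpin and 78992 with the inhibitor, a change of 0.59 (0.58 to 0.61) in sh-METTL3. This gene lies on chromosome 19, and the genes of this list were not set against their neighbours. VIM, an intermediate filament gene, had 244754, 185206 and 246423, a change of -0.40 (-0.41 to -0.39). With the inhibitor the extremes were EIF3F, an initiation factor subunit, at 0.15 (0.09 to 0.21) and EIF4B, a cofactor of the helicase that unwinds 5′ ends, at -0.16 (-0.20 to -0.12).

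The snoRNA host genes, whose spliced transcripts also begin with such tracts and whose introns release guides for ribosomal RNA modification, had the highest median of the lists in sh-METTL3, 0.22, with 11 of 11 above 0 (50.2% of all genes) and 10 higher by at least 0.1 (35.1%). With the inhibitor their median was -0.02, with 1 higher and 2 lower by that amount (31.6% and 31.7%). ZFAS1 had 1723 normalized counts in sh-CTL, 2303 with the METTL3 hairpin and 2250 with the inhibitor, changes of 0.42 (0.32 to 0.51) and 0.38 (0.29 to 0.48). SNHG16 had the smallest change in sh-METTL3, 0.01 (-0.05 to 0.08), and SNHG12 the lowest with the inhibitor, -0.33 (-0.43 to -0.22). ZFAS1 was thus above sh-CTL in both libraries, unlike SNHG12.

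The 9 genes taken as dedicated chaperones, most of which guard a new ribosomal protein until it is built in, had medians of 0.02 and 0.04. In sh-METTL3 1 was higher and 2 were lower by at least 0.1 (35.1% and 34.9% of all genes), and with the inhibitor 4 and 1 (31.6% and 31.7%). BCCIP, a chaperone of RPL23, had 5083 normalized counts in sh-CTL, 5458 with the METTL3 hairpin and 5666 with the inhibitor, changes of 0.10 (0.05 to 0.16) and 0.16 (0.10 to 0.21). PDCD2L had 786, 703 and 987, changes of -0.16 (-0.31 to -0.01) and 0.33 (0.19 to 0.47). HEATR3, which takes part in the import of RPL5, stood at -0.13 (-0.21 to -0.06) with the inhibitor.

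The 11 regulators of TOP message translation had medians of -0.08 and -0.04. In sh-METTL3 1 was above 0 and 10 were below, beside 50.2% of all genes above 0. By at least 0.1, 1 was higher and 3 were lower there (35.1% and 34.9% of all genes), and 1 and 2 with the inhibitor (31.6% and 31.7%). RPTOR, the subunit of the mTOR complex that selects its substrates, had 3116 normalized counts in sh-CTL, 2545 with the METTL3 hairpin and 3040 with the inhibitor, a change of -0.29 (-0.37 to -0.21) in sh-METTL3. TSC1, an inhibitor of the pathway, had 1918, 2232 and 1775, a change of 0.22 (0.13 to 0.31). With the inhibitor, RHEB, the GTPase that activates mTOR, stood at 0.22 (0.17 to 0.28) and EIF4EBP2, a repressor of cap-dependent initiation, at -0.21 (-0.26 to -0.17). LARP1 had 21162, 21115 and 21308 normalized counts, nearly the same in all 3 libraries. These are levels of RNA, and the activity of the pathway was not measured.

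The proteins of the mitochondrial ribosome, a separate machine encoded by 78 listed nuclear genes, had medians of 0.02 in both comparisons. In sh-METTL3 25 were higher and 17 lower by at least 0.1 (35.1% and 34.9% of all genes), and with the inhibitor 11 and 6 (31.6% and 31.7%). Their part of the reads was 0.496%, 0.512% and 0.498% in sh-CTL, sh-METTL3 and sh-CTL + PLK1i. MRPL54 and MRPL32 stood at 0.76 (0.56 to 0.96) and -0.51 (-0.58 to -0.44) in sh-METTL3, and MRPS28 and MRPL19 at 0.31 (0.11 to 0.51) and -0.17 (-0.23 to -0.11) with the inhibitor. MRPL54 lies on chromosome 19 and MRPL32 on chromosome 7, and this list was not set against neighbours either. With an SD of 0.20 in sh-METTL3, against 0.12 over the cytosolic members, this list was spread to both sides of 0.

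**Figure D5:**
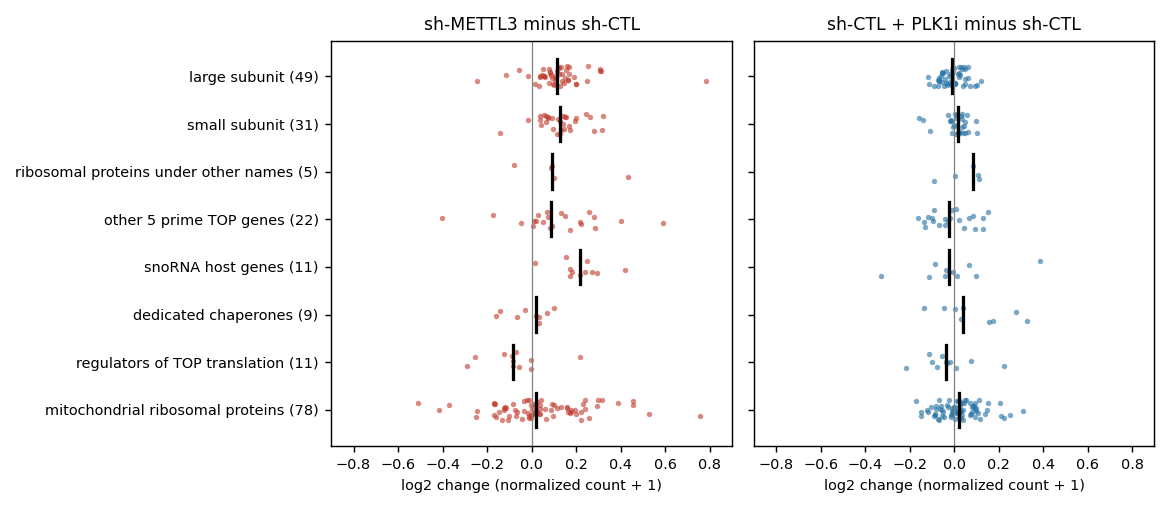
Log2 change of each gene (x axis) in the large and small subunit lists and the related lists (y axis, number of genes in brackets, points spread vertically for sight only) in sh-METTL3 (left) and sh-CTL + PLK1i (right), each minus sh-CTL, with black bars at the medians. In sh-METTL3 the bars of the 2 subunits stand at 0.12 and 0.13, that of the snoRNA host genes at 0.22 and that of the mitochondrial ribosomal proteins at 0.02.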

How the data were processed

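RNA-seq libraries, made with a stranded mRNA kit, of MIAPaCa-2 cells were compared, 1 per group, grouped by genotype and treatment as given per the labels. The submitters' processing notes name FastQC 0.11.9, STAR 2.7.10, RSEM 1.3.3 and hg19, without their roles. The values deposited by the authors are on a log2 scale, and their steps and lowest value fit log2 of a scaled count plus 4, a form read from the values and not stated. Taking this off and dividing by what 1 read is worth (1.17, 0.927 and 0.921 in sh-CTL, sh-METTL3 and sh-CTL + PLK1i) gave values within 0.1 of whole numbers for 100% of those up to 2000 reads. Reads, and normalized counts (reads divided by the size factor the scaling implies), were taken from these. Changes are differences of log2(normalized count + 1), which understate the change of low genes. Each interval is the Clopper-Pearson interval of the reads in 2 libraries given their sum, or Wilson's for parts of all reads, at the 95% level, and covers counting error only. Genes had to have a mean normalized count of at least 1. Python 3.11.15, numpy 2.4.6, pandas 2.3.3 and scipy 1.17.1 were used, and the read recovery and intervals were tested on simulated data. Lengths and hg19 positions came from GENCODE 44 mapped to the same build, and start sequences from RefSeq, where 65 members matched. For 3 members (RPL22, RPL37 and RPS15) the symbol cell also held an identifier, which was removed.

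The members, gene lists, thresholds and alternatives were chosen with earlier results of these data known. Named were the paralog pairs, the 5 largest differences in each direction and comparison, the 5 highest and 3 lowest members per kb, the stalk and 5S members, FAU and RACK1, and the extremes of each related list with means of 200 or more. RPL35A, RPS27A and LARP1 were named after their values were seen. Some genes that this rule names are not reported here.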

Additional observations from a re-analysis of the deposited data

How the results depend on the processing

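No paired analysis was possible because each group held 1 library, and for the same reason no library could be left out. Of 296 values for groups, counts and lists under other settings, 273 kept within the tolerance (0.05 on the log2 scale, or 1.5 times for counts) and 23 moved. Some of the 273 could not move. The filters on low values left out no member, and scaling a library cancels in the difference between subunits. The tolerance of 0.05 was wider than both subunits' medians with the inhibitor, so a change of their sign there counted as kept. Of 1159 values for single genes and pairs, 1041 kept within the main counting interval and 115 moved. Another 3, from main changes of at least 0.1 in size, changed sign. Sign changes of smaller values were not counted apart. In sh-METTL3 the members called higher numbered 14 at a log2 change of at least 0.2, 0 at 1 and 73 by an interval that leaves out 0, and those called lower 1 at 0.2 and 0 at 1. With the inhibitor, members called higher numbered 1 with scaling to total reads, by the upper quartile, by TMM or to the reads of other genes. Of all genes, 30.3%, 29.2%, 31.1% and 30.2% were called higher under these scalings in turn. Members called higher with the inhibitor numbered 0 at 0.2 or 1, 27 by the interval and 8 relative to neighbours. The share of all genes called relative to neighbours was not computed. Members called lower with the inhibitor numbered 0 at 0.2 or 1 and 22 by the interval. The members' part of the reads in sh-CTL, sh-METTL3 and sh-CTL + PLK1i was 5.03%, 5.46% and 4.99% with pseudogenes, and 5.19%, 5.62% and 5.18% without mitochondrial genes in the total. Of the 5 highest members per kb, 3 stayed with the median length. Relative to neighbours, in sh-METTL3, RPL17 turned to 0.21, RPL12 to -0.037 and RPL5 to -0.081. With the trend of change with GC content and length removed, the members' median was 0.11 in sh-METTL3 (0.10 with median lengths) and -0.03 with the inhibitor (-0.01). The settings relative to neighbours, with median lengths in the trend and with canonical transcript lengths were chosen after seeing the data. The cause of these shifts was not tested. No member had under 763 reads in any library, and the variation between replicate libraries was not measured.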
